A study of Mus musculus with 20 samples.

Results

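Serpin genes were followed across the cell classes of growing mouse back skin, in control mice and in mice without Fgf5. Of 31055 features in the deposited tables, 61 had a symbol made of Serpin, a clade letter from a to i and a number. The 37 of them with at least 10 UMIs (unique molecular identifiers, 1 for each captured transcript) over both deposited matrices are described here. The remaining 24 rows held 7 UMIs at most, and 11 held 0, which allows a level of up to 0.0126 CPM (counts-per-million, the UMIs of a gene over all UMIs; from 3 UMIs over both matrices).

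Serpins are inhibitors of proteases, most often of serine proteases. The protease cuts an exposed loop of the serpin, and the change of shape that follows locks the enzyme in an inactive complex. Clade B serpins work mainly inside cells, and several of them are typical of keratinocytes or of cytotoxic lymphocytes. Clades A, C, D, E, F and G are mostly secreted and restrain clotting, fibrinolysis, complement and tissue proteases, while Serpinh1 inhibits no protease and is the collagen chaperone of the endoplasmic reticulum.

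Single cells of dorsal skin in anagen, the growth phase of the hair follicle, were profiled with 3′ UMI libraries. Control mice had the genotype Nfatc1-CreER;R26R;mTmG (4 listed samples), and the mutant mice had the same transgenes and were also Fgf5-/- (16 listed samples). Fgf5 is a secreted growth factor known for ending anagen. Nfatc1-CreER drives a tamoxifen-dependent Cre from Nfatc1, a gene of bulge stem cells, and mTmG turns recombined cells from red to green. Both groups received tamoxifen for 3 days, starting at postnatal day 21 or 22 in controls and at day 23 or 24 in mutants, and the labels give neither the age at collection nor the number of animals. Every sample of a genotype was deposited in 1 matrix with no key from barcodes to samples. With no replicates, no test between the genotypes was possible, and genotype, tamoxifen timing and library cannot be told apart. Intervals printed below are exact 95% intervals for counts and cover counting error only.

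The matrices held 16973 control and 13411 mutant barcodes, of which 13790 and 11002 were kept, with medians of 5592 and 5985 UMIs and of 3.21% and 4.92% mitochondrial UMIs. Kept cells of the matrices had 36 barcode sequences in common. Fgf5 itself was counted at 12.1 CPM in control and 9.05 CPM in mutant cells, so transcripts of the targeted gene were still counted in the mutant matrix; which part of the gene the allele removes is not given in the sources used here. The tissue is labelled epidermis, yet clusters with the markers of dermal papilla, fibroblasts, melanocytes, T cells, endothelium and erythroid cells were present. Compared were 11 classes with at least 200 cells in each matrix, and 3 more with at least 100, which were added once the cell numbers were known.

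Members lie in few places of the genome (GRCm38, GENCODE vM21 coordinates). On chromosome 1, 8 clade B members sit between 106861173 and 107610484, among them Serpinb2 (107511423 to 107535478), Serpinb5 (106861173 to 106883348), Serpinb7 and Serpinb8. Another 8 clade B members lie on chromosome 13 between 32842092 and 34002794, including Serpinb1a, Serpinb6a, Serpinb6b and Serpinb9. All 12 clade A members lie on chromosome 12 between 103614786 and 104414329. The block on chromosome 1 supplied 177144 UMIs over both matrices, the block on chromosome 13 36527, the clade A block 2835 and the 9 members of other clades 79120.

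RefSeq promoter sequences (GRCm38.p6), running from 250 bases before to 50 bases after the start site, were available for 31 of the 37 members. TGANTCA, a loose form of the AP-1 motif with any base in the middle, was searched on both strands. It was found in 6 of the 7 chromosome 1 clade B promoters and in 0 of the other 24. Of all 32851 RefSeq promoters, 7.81% held it. Counted by gene, as the members are, 8.97% of 27025 genes did. With G or C in the middle (TGAGTCA on either strand) it was found in 2 of the 31, Serpinb7 and Serpinb8. That stricter form was in 5.20% of all promoters and 5.95% of genes. The matches of Serpinb2, Serpinb5, Serpinb11 and Serpinb12 have A or T in the middle and are not the stricter form. The TATA box TATAAA was found in 9 of the 31, in 13.6% of all promoters and in 15.7% of genes. The cAMP response element TGACGTCA was found in 0 of the 31, in 1.79% of promoters and in 2.03% of genes. A match is a description of these letters, and no binding was measured. Apart from its stricter form, the motif overlaps no other motif searched in the windows shown.

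The windows with the motif are shown because this block holds the member with the broadest difference between the matrices, Serpinb2. Each runs 5′ to 3′ on the strand of the gene, with the motif in capitals.
Serpinb2, chr1:107511311-107511353, plus strand: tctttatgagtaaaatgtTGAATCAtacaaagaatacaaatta
Serpinb5, chr1:106861017-106861059, plus strand: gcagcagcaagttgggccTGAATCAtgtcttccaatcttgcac
Serpinb7, chr1:107422626-107422668, plus strand: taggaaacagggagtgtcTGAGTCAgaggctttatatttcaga
Serpinb8, chr1:107589965-107590007, plus strand: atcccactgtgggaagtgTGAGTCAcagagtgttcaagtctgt
Serpinb12, chr1:106934386-106934428, plus strand: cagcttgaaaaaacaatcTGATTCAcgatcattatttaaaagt
Serpinb11, chr1:107362220-107362262, plus strand: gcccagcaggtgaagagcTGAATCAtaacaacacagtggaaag
The bases before the Serpinb2 start site follow, with the matches in capitals. The TGANTCA match, with A in the middle, begins 94 bases before the start, and the TATA box 29 bases before it.
Serpinb2, chr1:107511173-107511422, plus strand: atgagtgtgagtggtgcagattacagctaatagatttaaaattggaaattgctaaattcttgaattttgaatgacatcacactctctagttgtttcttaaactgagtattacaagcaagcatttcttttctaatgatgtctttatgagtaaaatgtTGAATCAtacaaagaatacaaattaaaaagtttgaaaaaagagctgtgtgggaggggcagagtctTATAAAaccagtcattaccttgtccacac
For Serpinb7 and Serpinb11 the RefSeq start lies 23034 and 1116 bases from the GENCODE start of the gene. The Serpinb8 promoter holds a second match behind its start site, and the Serpinb11 promoter a second match further upstream.

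Levels are given as CPM of the summed UMIs of a class. A transcript is counted once at its 3′ end, so no length correction was made. A ratio of mutant to control was called large if it was at least 2-fold, its nearer bound lay beyond 1.5-fold, and the higher matrix had at least 20 CPM and 20 UMIs; "rose" and "fell" are used for large ratios only. Genes that reached the last 2 minimums were compared, and the share of them with a large ratio is the background given for each class.

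**Figure D1:**
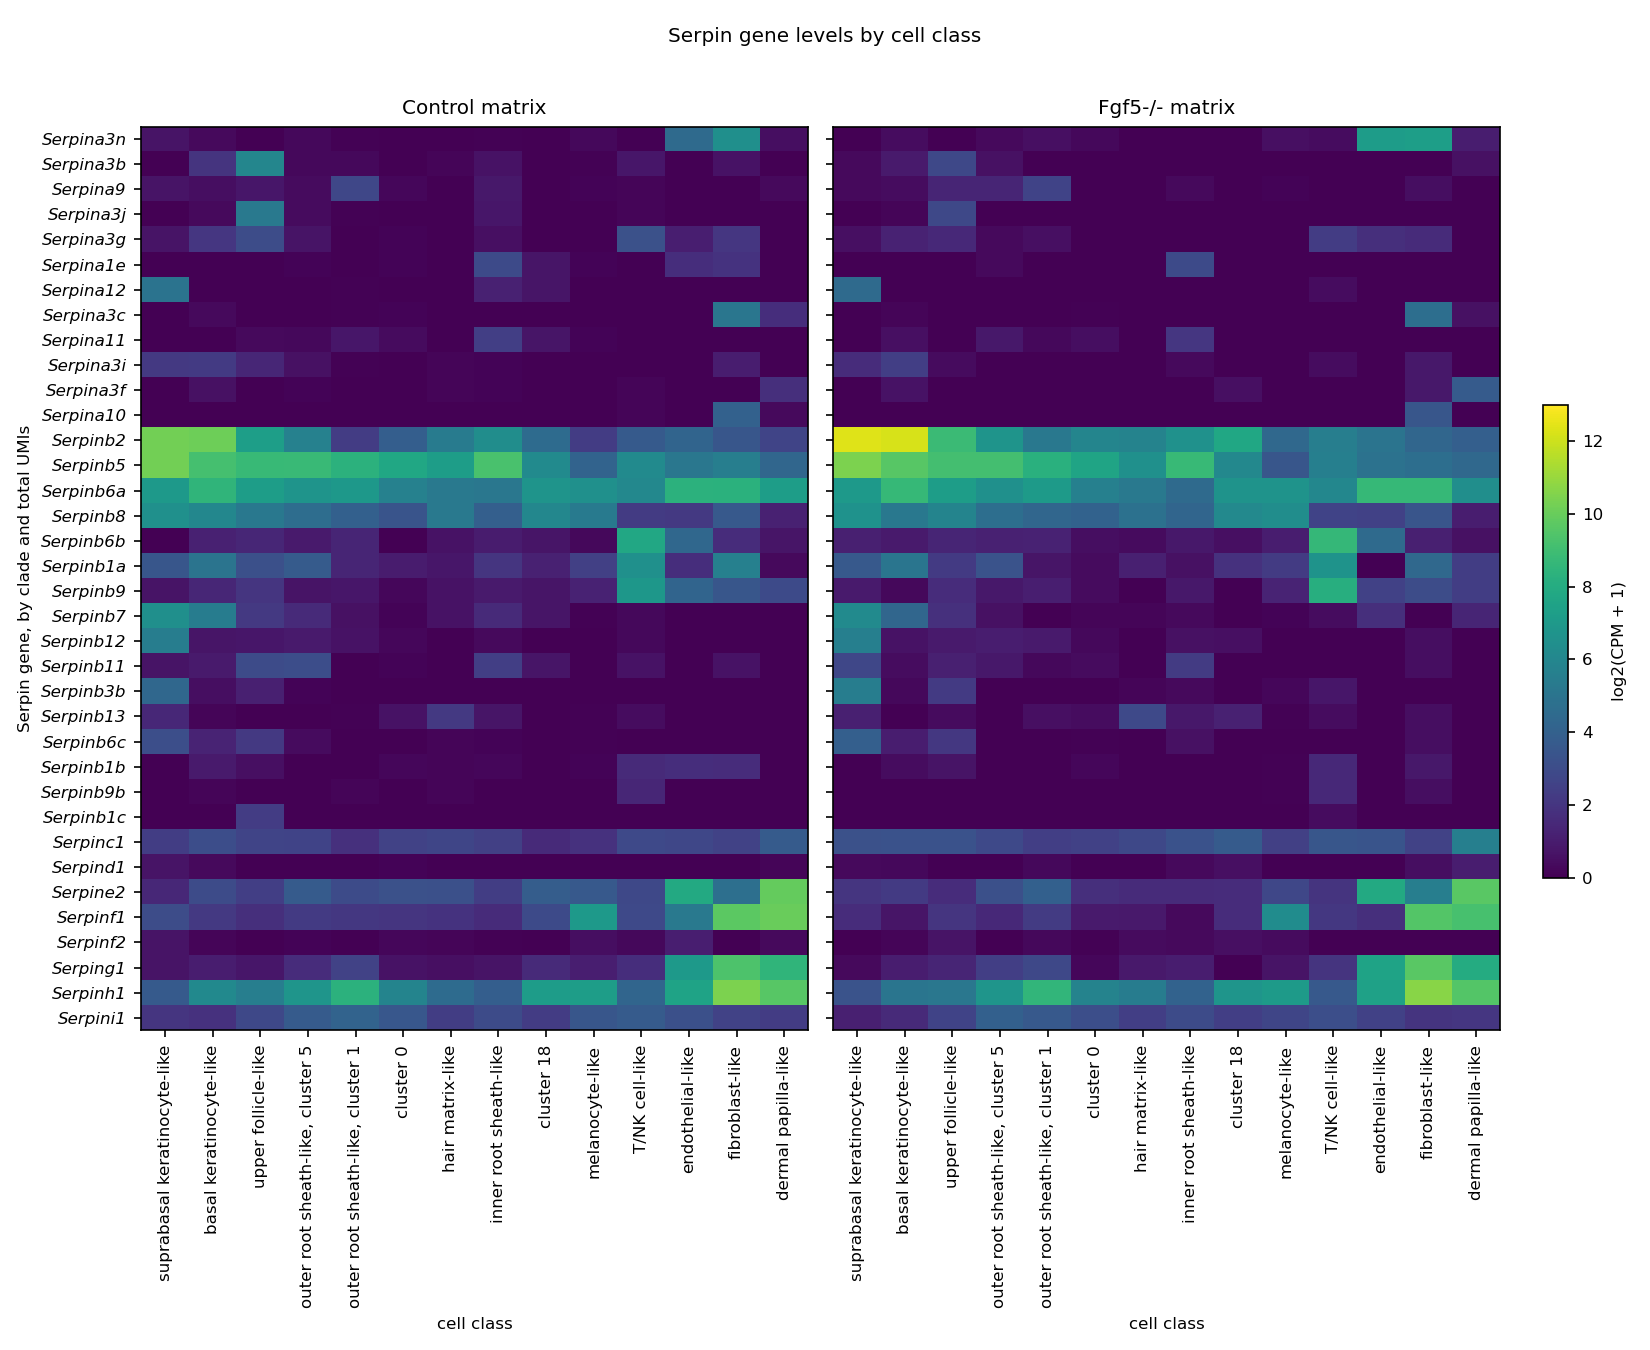
Levels of 36 of the 37 Serpin genes (rows, by clade) in the 14 compared cell classes (columns), as log2(CPM + 1) of the summed UMIs, in the control and the Fgf5-/- matrix. Serpinb2 and Serpinb5 are brightest in keratinocyte classes, Serpinb6b and Serpinb9 in the T/NK cell-like class, and Serpinh1, Serpinf1 and Serping1 in fibroblast-like and dermal papilla-like cells, in both matrices.

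Over the 11 larger classes, 63 member and class pairs could be compared, from 18 members. In the mutant matrix 10 pairs were higher and 5 lower, which is 15.9% and 7.94% of the pairs, while over all gene and class pairs 3.46% were higher and 5.5% lower. Serpinb2 alone made up 7 of the 10 higher pairs. Of the 54 pairs of other members 3 were higher, and 34 of all 63 pairs had a log2 ratio within 0.5 of 0. The median log2 ratio of the 63 pairs was 0.00 to 2 decimals.

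Scaling bears on these counts. TMM factors add to every log2 ratio of a class 0.47 in suprabasal, 0.29 in basal, 0.23 in fibroblast-like, 0.17 in melanocyte-like, 0.12 in upper follicle and 0.11 in T/NK cells. With them 11 pairs were higher and 2 lower. Serpinb7 and Serpinh1 in basal cells and Serpinb1a in fibroblasts then lost their large ratios, under TMM and under median-ratio size factors alike.

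Serpinb2 encodes plasminogen activator inhibitor 2, a clade B inhibitor of urokinase and tissue plasminogen activator that keratinocytes make in stressed and differentiating epidermis. Interfollicular suprabasal keratinocyte-like cells (Krt1, Krt10, Lor; 190 control and 493 mutant cells) held 1203 CPM Serpinb2 in the control and 5358 CPM in the mutant matrix. Basal keratinocyte-like cells (951 and 1372 cells) held 1130 and 4776 CPM. Serpinb2 thus rose by a log2 ratio of 2.16 (2.09 to 2.22) in suprabasal and 2.08 (2.05 to 2.11) in basal cells, and more so with TMM factors (2.63 and 2.37). In these classes large ratios were common, at 22.7% of suprabasal and 21.6% of basal genes.

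More cells held Serpinb2, and each held more of it. After every cell was thinned to 1500 UMIs, the share of basal cells with Serpinb2 was 64.3% in control and 90.3% in mutant, and positive cells had a mean of 2.29 and 7.84 UMIs. Without thinning the shares were 87.0% and 94.8%. Suprabasal cells went from 61.4% to 91.2% thinned, with 2.80 and 8.90 UMIs per positive cell. In dermal papilla-like cells, which should lack Serpinb2, the thinned shares were 0.905% and 1.95%, at median depths of 7763 and 3055 UMIs.

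The basal class was made of different clusters in the matrices. Cluster 3 (34 control and 1323 mutant cells) was led by Tslp, Epgn, Ccl20, Igfbp3 and Ptgs2, and cluster 8 (917 and 49 cells) by Ndufa4l2, Fcgbp and Ly6a. Within cluster 3 Serpinb2 was 2023 CPM in control and 4878 CPM in mutant cells (log2 ratio 1.27). Within cluster 8 it was 1105 and 879 CPM (-0.33). Weighting the clusters equally gave a log2 ratio of 0.88 for Serpinb2, which is under 2-fold and below the class value of 2.08. Companion layer markers (Krt75, Krt6a, Krt6b, Krt16, Krt17, Gjb6) summed to 1384 CPM in control and 7468 CPM in mutant basal cells, with 3 of the 6 higher and none at 0. Markers of dividing cells summed to 1169 and 263 CPM, with 0 of 8 higher in the mutant. The part of these shifts in the Serpinb2 difference was not tested.

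Outside the interfollicular epidermis Serpinb2 was higher in the mutant matrix as well, at far lower levels. In upper follicle keratinocyte-like cells (342 and 384 cells) 157 and 469 CPM Serpinb2 were counted, a rise of 1.58 (1.45 to 1.71), and the thinned share of positive cells was 9.80% and 20.97%. The unnamed cluster 18, led by Csta1 and Foxq1, had 22.2 and 212 CPM (3.26). Cluster 5 of the outer root sheath-like cells, led by Pthlh and Krt6a, had 50.7 and 106 CPM (1.07). Cluster 1 of that name, led by Gnmt and Cbs, had 4.02 and 36.3 CPM (3.17), and the unnamed cluster 0 had 13.6 and 60.4 CPM (2.15). In cluster 1 the share of thinned cells with Serpinb2 was 0.453% and 4.02%.

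Serpinb2 was also counted in classes that are no keratinocytes. Langerhans or dendritic cell-like cells, too few to be compared (60 and 77 cells), held 697 and 3981 CPM of it. T/NK cell-like cells held 11.95 and 46.4 CPM (1.96) and melanocyte-like cells 3.90 and 20.3 CPM (2.38). A single cell held 20.4% of the control and 20.3% of the mutant Serpinb2 UMIs of the T/NK class. In the upper follicle and all the compared classes named after it, the higher of the 2 Serpinb2 levels was 8.75% or less of the highest. That highest level of the gene was 5358 CPM in mutant suprabasal cells. Langerhans or dendritic cell-like cells, at 3981 CPM in the mutant, were not compared and are not among these low levels. Within the control matrix the upper follicle level of 157 CPM stands beside a suprabasal level of 1203 CPM. Over all kept cells Serpinb2 went from 138 to 838 CPM (2.60), and the part of RNA free in the suspension in these low levels was not tested. Without levels under 10% of the highest class, 4 higher and 3 lower pairs were left over the 11 larger classes.

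Serpinb2 did not reach a large ratio in hair matrix-like cells (41.0 and 55.9 CPM, 0.45; between 1.18 and 1.62, and large, under 4 alternatives) or in inner root sheath-like cells (83.3 and 93.2 CPM, 0.16). These 2 classes had 0 large Serpin ratios among the 5 and 3 members compared, against 3.73% and 6.12% of all their genes. The 3′ end of Serpinb2 shares 22.7% of its 60-base stretches with the overlapping gene Serpinb10, which is not among the rows used here, so its counts carry that uncertainty.

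**Figure D2:**
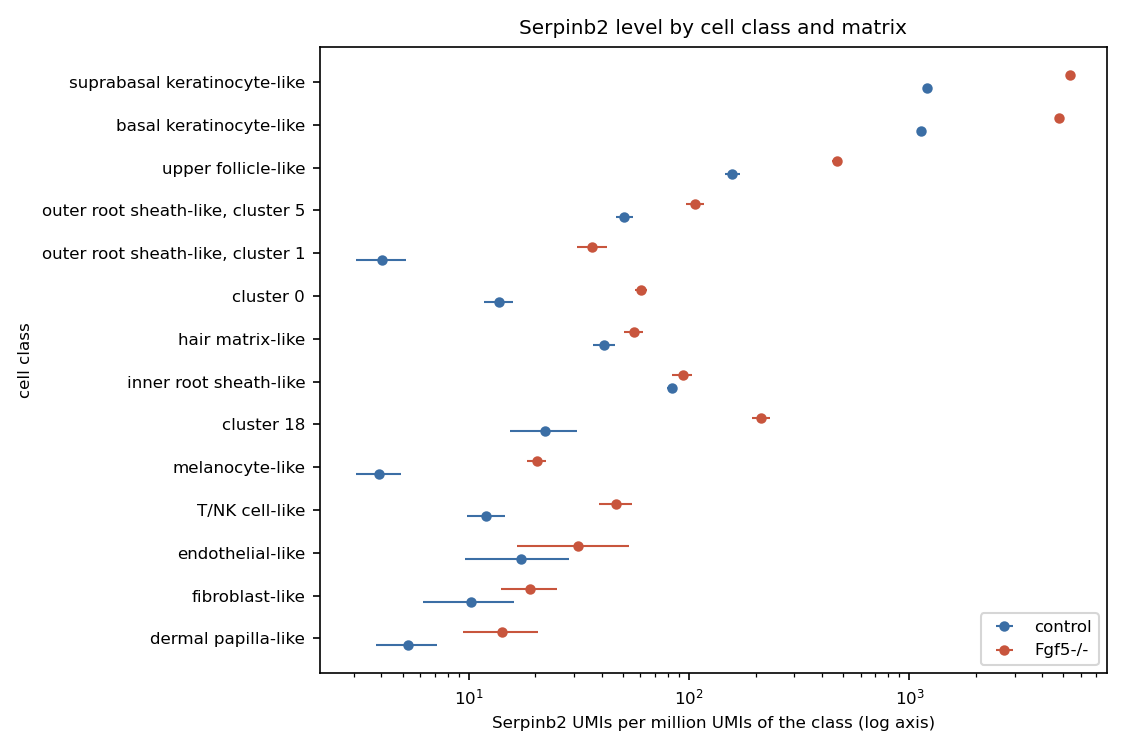
Serpinb2 level in CPM (log axis) by cell class, with exact 95% Poisson intervals as lines, in the control (blue) and the Fgf5-/- matrix (red). The mutant value lies right of the control value in all 14 classes, from 14.2 against 5.27 CPM in dermal papilla-like cells to 5358 against 1203 CPM in suprabasal cells.

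Serpinb5 encodes maspin, a clade B serpin of epithelial cells that inhibits no protease in the classical way. It was counted in all keratinocyte classes, and none of its ratios was large. In fibroblast-like cells, at 46.8 and 25.4 CPM Serpinb5 (log2 ratio -0.88), the ratio was large with Serpin genes kept for clustering (-1.12), a stricter cell filter (-1.36) or thinned cells (-2.13); its level there was 3.37% of the highest. Suprabasal cells held 1195 CPM Serpinb5 in control and 1390 CPM in mutant, basal cells 568 and 790 CPM (log2 ratio 0.48), upper follicle cells 434 and 557 CPM, inner root sheath cells 624 and 433 CPM (-0.53) and hair matrix cells 152 and 91.7 CPM (-0.73). Each of these lay within 2-fold. The basal clusters differed in direction: Serpinb5 was 574 and 799.6 CPM in cluster 3 (0.48) and 568 and 430.2 CPM in cluster 8 (-0.40, interval -0.71 to -0.11). Cluster 5 held 449 and 560 CPM, cluster 1 323 and 309 CPM.

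The other chromosome 1 members were scarcer. Serpinb7, a clade B serpin of the upper epidermis, stood at 42.9 CPM in control and 18.3 CPM in mutant basal cells, a fall of 1.23 (interval -1.51 to -0.95) that shrank to -0.94 with TMM factors and was then no longer large, nor was it after thinning (-0.71). Within basal cluster 8 Serpinb7 was 43.6 and 31.7 CPM, within cluster 3 18.5 and 17.9 CPM, and equal weights gave -0.32. Suprabasal cells held 89.1 and 72.3 CPM of it. In suprabasal cells Serpinb3b, a mouse counterpart of the squamous cell carcinoma antigens, rose from 19.5 to 45.0 CPM (1.21, 0.67 to 1.79), carried by 23 of 190 and 87 of 493 cells. Serpinb12 was 44.9 and 48.3 CPM there and Serpina12 30.1 and 21.4 CPM, neither with a large ratio.

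Serpinb8 inhibits furin-like and other serine proteases, and it was 1 of 2 members that rose in pigment cells. Melanocyte-like cells (1385 and 1504 cells) held 38.0 CPM Serpinb8 in control and 82.4 CPM in mutant, a rise of 1.12 (0.99 to 1.25), where 4.36% of genes had a large ratio. It was found in 32.4% of control and 51.2% of mutant cells, and in 5.17% and 10.8% after thinning. Cluster 2, with most melanocyte-like cells, gave 38.4 and 82.9 CPM (1.11), and cluster 17 gave 27.8 and 55.5 CPM (0.998) from 18 and 22 UMIs. Inner root sheath markers in melanocyte-like cells summed to 633 CPM in control and 97.3 CPM in mutant, and their part in the result was not tested. In basal cells Serpinb8 was 64.4 and 35.8 CPM (-0.85), and in suprabasal cells 92.7 and 98.0 CPM. The basal ratio was large with a stricter cell filter (-1.02). Within basal cluster 8 Serpinb8 was 65.8 and 36.2 CPM (497 and 8 UMIs). Within cluster 3 it was 13.9 and 35.8 CPM (3 and 303 UMIs). Of the other 4 members compared in melanocyte-like cells, Serpinb2 also rose, as given above, while Serpinf1 was 125 and 77.7 CPM (-0.68) and Serpinh1 152 and 134 CPM.

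T/NK cell-like cells (3061 and 1302 cells) held 3 clade B genes of chromosome 13 at 103 CPM or more in the mutant matrix, of which Serpinb9 and Serpinb6b were low in every other compared class and Serpinb1a was not. Serpinb9 encodes an inhibitor of granzyme B that protects cytotoxic cells from their own granules. It rose from 119 to 284 CPM, a log2 ratio of 1.26 (1.12 to 1.39), where 10.7% of genes had a large ratio. Serpinb6b was 223 and 406 CPM (0.86, 0.76 to 0.97), under 2-fold. Serpinb1a, an inhibitor of neutrophil elastase-like proteases, was 91.1 and 103 CPM (0.18). After thinning, Serpinb9 was found in 14.2% of control and 28.4% of mutant cells, and Serpinb6b in 24.3% and 34.1%. In hair matrix-like cells, which should lack both, 0 of 600 thinned control cells held either gene (exact upper bound 0.613%), and in the mutant 0.284% held Serpinb6b and 0 of 705 cells Serpinb9 (upper bound 0.522%). Median depths were 10021 and 8835 UMIs there and 2286 and 1947 UMIs in T/NK cells.

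The class joined 5 clusters that were filled unevenly. Cluster 10 (423 and 443 cells; Trdc, Cd3e) held 60.5 CPM Serpinb9 in control and 130 CPM in mutant (1.10). Cluster 13 (558 and 193 cells; Il17a, Icos) held 65.0 and 225 CPM (1.79). Cluster 6, with 1265 control and 35 mutant cells, held 211 and 354 CPM (0.74), cluster 16, with 28 and 612 cells, 269 and 398 CPM (0.57), and cluster 12, with 787 and 19 cells, 42.9 and 34.2 CPM (-0.33, from 77 UMIs and 1 UMI). Serpinb9 was thus more than 2-fold higher in the 2 clusters that both matrices filled, and equal weights for the 5 clusters gave 0.82. Serpinb6b was 104 and 237 CPM in cluster 10 (1.19) and 151 and 386 CPM in cluster 13 (1.36). Serpinb1a stood at 240 and 232 CPM in cluster 13 and at 21.7 and 12.3 CPM in cluster 10. Serpinb1a had a log2 ratio of 0.18 in the class and -0.51 with equal weights.

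Erythroid markers in the T/NK class summed to 4780 CPM in control and 607 CPM in mutant, and melanocyte markers to 406 and 841 CPM. Their part in these ratios was not tested. Outside the T/NK class, Serpinb9 and Serpinb6b stayed at or under 21.5 CPM in the other 13 classes of both matrices.

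**Figure D3:**
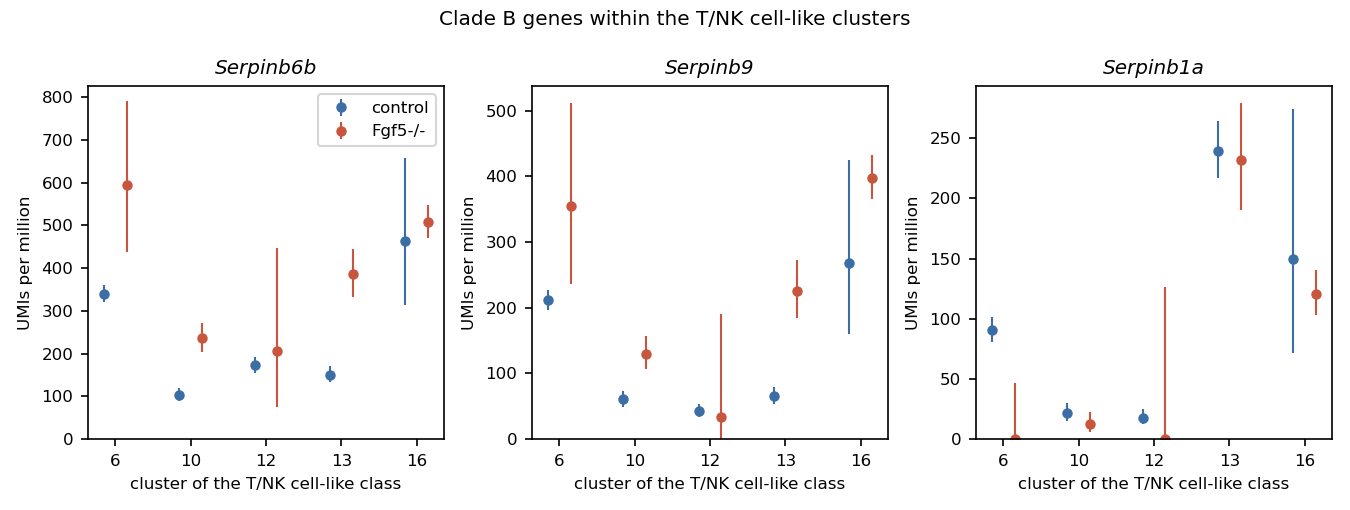
Serpinb6b, Serpinb9 and Serpinb1a in the 5 clusters of the T/NK cell-like class, as CPM with exact 95% Poisson intervals, control in blue and Fgf5-/- in red. In clusters 10 and 13 the red points of Serpinb6b and Serpinb9 lie above the blue ones with intervals apart, and those of Serpinb1a overlap.

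Serpinb6a, a broad intracellular inhibitor of trypsin-like proteases and cathepsin G, was counted in every class and had no large ratio. Its levels ran from 34.3 CPM in inner root sheath-like to 357 CPM in basal cells of the control matrix, and from 21.7 to 423 CPM in the mutant matrix, where fibroblast-like cells were highest. The widest difference was in dermal papilla-like cells, at 148 and 84.5 CPM (-0.81).

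Serpins of the mesenchyme mostly differed by less than 2-fold. Fibroblast-like cells (397 and 503 cells) held 1365 CPM Serpinh1 in control and 1677 CPM in mutant (log2 ratio 0.30), and 669 and 809 CPM Serping1, the C1 inhibitor of the complement cascade (0.27). Serpinf1, pigment epithelium-derived factor, an inhibitor of vessel growth, was 838 and 733 CPM there (-0.19, and 0.04 with TMM factors). Serpina3n, an acute phase antichymotrypsin, was 87.7 and 156 CPM (0.83), and it passed the size rule with TMM factors at 1.06. Serpine2, protease nexin 1, a thrombin and urokinase inhibitor, was 25.8 and 45.5 CPM (0.82). Its ratio was large with median-ratio size factors and, at 1.53, with cells thinned to 1500 UMIs.

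Serpinb1a fell in fibroblast-like cells from 49.5 to 20.1 CPM (-1.30, interval -1.82 to -0.79), and this was not large with TMM factors (-1.07). Its fibroblast level was 2.83% of that in 38 control mast cell-like cells, which held 1748 CPM, so it counts among possible free RNA. T cell markers summed to 196 CPM in control and 68.4 CPM in mutant fibroblast-like cells, and mast cell markers to 0.538 and 0.402 CPM with 4 of the 5 at 0 in both. In this class 1 of 10 members compared had a large ratio, against 8.11% of all genes.

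Dermal papilla-like cells (518 and 336 cells; Wif1, Rspo3, Corin) are the signalling centre of the follicle. They held 963 CPM Serpine2 in control and 824 CPM in mutant (-0.22), 1049 and 597 CPM Serpinf1 (-0.81), 774 and 741 CPM Serpinh1 (-0.06) and 357 and 255 CPM Serping1 (-0.49). The 4 values were lower in the mutant, none past 2-fold. Serpinc1, antithrombin, the main plasma inhibitor of thrombin, rose from 12.1 to 47.8 CPM (1.98, 1.55 to 2.41), from 92 and 91 UMIs in 78 and 64 cells. Once cells were thinned to 1500 UMIs its log2 ratio was 0.53 and no longer large. Unthinned median depths were 7763 and 3055 UMIs, 15.1% and 19.0% of cells held Serpinc1, and 3.85% and 5.21% held it after thinning. Zbtb37 overlaps the gene on the opposite strand. Basal keratinocyte markers summed to 2806 CPM in control and 834 CPM in mutant dermal papilla-like cells and erythroid markers to 1760 and 6787 CPM. Their part was not tested, and 16.2% of genes in this class had a large ratio.

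Endothelial-like cells were few (195 and 122 cells), and 4.44% of their genes had a large ratio. Serpina3n rose from 21.7 to 146 CPM (2.75, 1.98 to 3.57), from 19 UMIs in 15 cells to 61 UMIs in 24 cells. Of the 61 mutant UMIs, 14 came from 1 cell. Serpinf1 went from 32 UMIs to 1 UMI, or 36.6 to 2.39 CPM, a ratio whose interval on the log2 scale ran from -9.28 to -1.35, and 12 of the 32 UMIs came from 1 cell. Serpine2 was 234.5 and 234.4 CPM, and Serpinb6a 332 and 416 CPM. Pericyte markers summed to 29.7 CPM in control and 244 CPM in mutant endothelial-like cells, and erythroid markers to 13951 and 502 CPM; their part was not tested.

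Outside the mesenchyme, Serpinh1 was also counted in outer root sheath-like and pigment cells. Cluster 1 of the outer root sheath-like cells held 331 CPM in control and 380 CPM in mutant, cluster 5 109 CPM in both, and melanocyte-like cells 152 and 134 CPM. In basal keratinocyte-like cells Serpinh1 fell from 70.7 to 31.8 CPM (-1.15, -1.37 to -0.94), and the value was under 2-fold with TMM factors (-0.87), at resolution 0.5 (-0.98) and with doublet calls kept (-0.99). Within cluster 8 it was 71.1 and 54.3 CPM, within cluster 3 55.6 and 31.2 CPM, and with equal weights the log2 ratio was -0.57. Hair matrix-like cells held 22.4 and 43.1 CPM Serpinh1 (0.95).

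Clade A genes were restricted in where they were counted. Serpina3b, an antichymotrypsin-like gene, fell in upper follicle keratinocyte-like cells from 61.2 to 6.12 CPM (-3.32, -4.06 to -2.66), and Serpina3j from 37.2 to 6.12 CPM (-2.60, -3.35 to -1.93). In this class 14.3% of genes had a large ratio. Both rest on few cells. Serpina3b was found in 11 of 342 control cells, 1 of which held 135 of the 260 UMIs, and in 3 of 384 mutant cells with 20 UMIs. Serpina3j was found in 11 and 3 cells, of which 9 and 2 also held Serpina3b. After thinning the log2 ratio of Serpina3j was -0.70, and Serpina3b gave no ratio. With doublet calls kept or at resolution 0.5 neither gene gave a value for this class. Under these settings Serpina3b instead had a large lower ratio in basal keratinocyte-like cells (log2 ratio -3.19 and -2.97).

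The upper follicle class included sebaceous cells. The 8 sebaceous markers (Mgst1, Scd1, Scd3, Cidea, Awat1, Elovl3, Plin2, Pparg) summed to 2944 CPM in control and 977 CPM in mutant cells of the class, with 0 of 8 higher in the mutant and 0 of 8 undetected in either. Elovl3 was 103.5 and 10.4 CPM, and Awat1 10.35 and 0.612 CPM. At Leiden resolution 2 the class came apart into a part with 4232 and 1937 CPM of these markers (220 and 176 cells), where Serpina3b was 84.5 and 14.3 CPM and Serpina3j 54.1 and 14.3 CPM, and a part with 636 and 293 CPM (114 and 176 cells), where Serpina3b was 20.6 and 0 CPM. The last part had 4 control and 29 mutant cells and no Serpina3b UMIs. Serpinb2 was 190 and 554 CPM in the first, 98.5 and 258 CPM in the second and 189 and 1293 CPM in the last part. The part of the sebaceous cells in the Serpina3b and Serpina3j values was not tested.

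**Figure D4:**
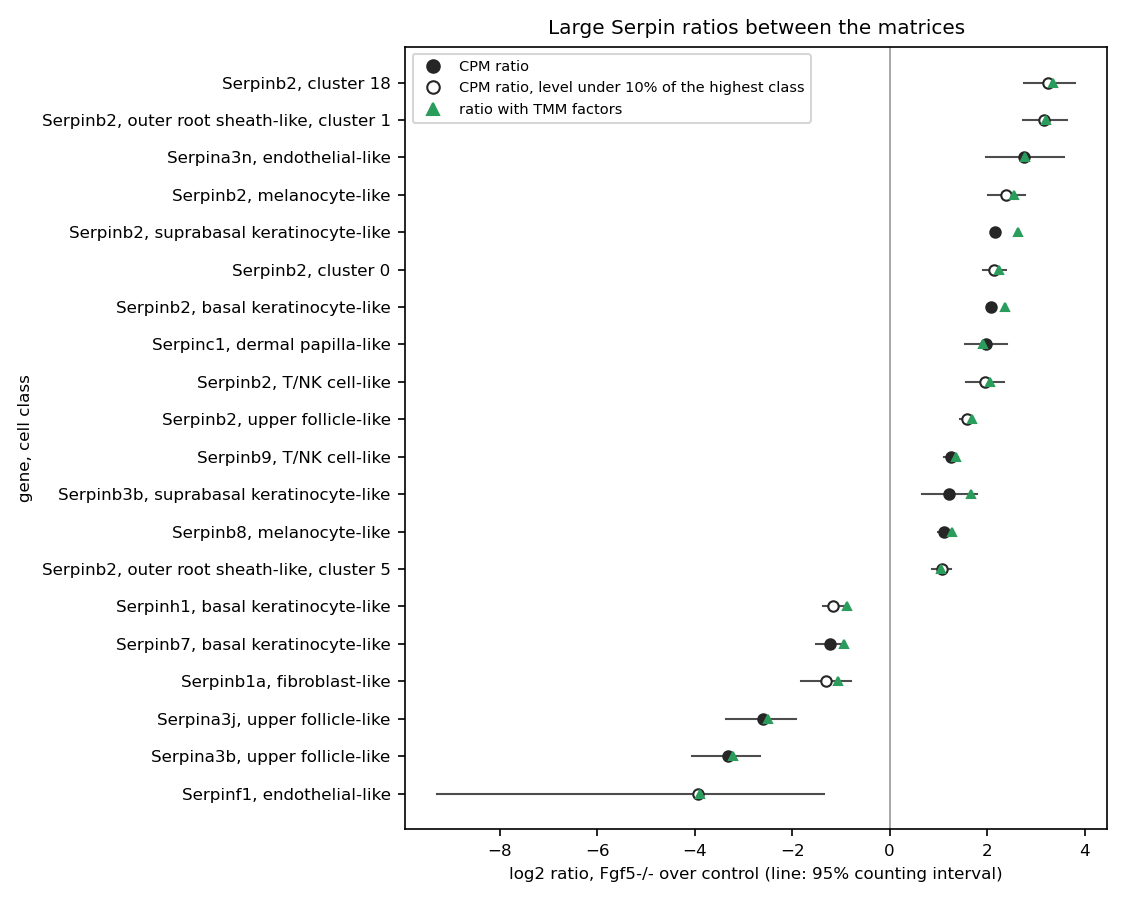
Large ratios of 36 of the 37 Serpin genes between the matrices in the 14 classes, as log2 of the Fgf5-/- over the control CPM, with exact 95% counting intervals as lines. Open circles stand for levels under 10% of the gene's highest class, and green triangles show the ratio with TMM factors. Serpinb2 fills 9 of the 14 positive ratios, and the Serpinh1 and Serpinb7 triangles lie within 1 of 0.

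Of the remaining members, Serpina3c was counted chiefly in fibroblast-like cells (33.3 and 25.4 CPM), and Serpina9, a serpin named for germinal centre B cells, in cluster 1 of the outer root sheath-like cells (5.92 and 5.18 CPM). In all, 16 members stayed under 20 CPM in each of the 14 classes, with a highest value of 16.4 CPM for Serpini1, neuroserpin, an inhibitor of tissue plasminogen activator. Serpina11, Serpina3i and Serpina3g share 42.7%, 19.6% and 14.7% of the 60-base stretches of their 3′ ends with other genes, and their counts are uncertain. For 25 of the 37 members no such stretch was shared.

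Shares of genes with large ratios in the classes not yet given were 5.23% in cluster 0, 2.74% in cluster 1, 3.14% in cluster 5 and 12.8% in cluster 18. In these 4 classes, 1 of 4, 1 of 5, 1 of 5 and 1 of 5 members had a large ratio, Serpinb2 in each case. Median log2 ratios of the members compared were 0.52 in T/NK cells against -0.09 for all genes, 0.28 and -0.14 in fibroblast-like cells, 0.05 and -0.16 in basal cells, -0.36 and 0.02 in dermal papilla-like cells, and -0.53 and 0.07 in inner root sheath-like cells. In the other 9 classes the members' median lay between -0.05 and 0.19.

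Genes that act with serpins were read from 7 lists over the 11 larger classes, on the CPM scale without TMM factors. Over all gene and class pairs there, 3.46% were higher and 5.5% lower. Examples from suprabasal, endothelial-like and cluster 18 cells come from the added classes and lie outside the counts of pairs. Of 59 pairs of the plasminogen activator system, the targets and partners of Serpinb2 and Serpine2, 7 (11.9%) were higher and 8 (13.6%) lower. Plaur, the urokinase receptor, was higher in 6 classes, for example from 31.9 to 113 CPM in basal cells (log2 ratio 1.82) and from 5.40 to 25.2 CPM in dermal papilla-like cells (2.22). Plat, tissue plasminogen activator, fell from 41.1 to 14.04 CPM in basal cells (-1.55) and rose from 66.3 to 316 CPM in endothelial-like cells (2.25). Plgrkt, a plasminogen receptor, fell from 134 to 47.3 CPM in dermal papilla-like cells (-1.51), and Plau, urokinase, rose from 13.04 to 40.5 CPM in cluster 18 (1.64).

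Among membrane and epidermal serine proteases 10 of 43 pairs were higher and 1 lower, beside 3.46% higher and 5.5% lower over all gene and class pairs. The examples from suprabasal cells below lie outside these 43 pairs, in an added class where 22.7% of all genes had a large ratio. Klk9 and Klk7 are kallikreins, and Klk7 cuts the junctions of shedding cells in the upper epidermis. In upper follicle cells Klk9 rose from 2.59 to 51.4 CPM (4.31), and in suprabasal cells Klk7 rose from 375 to 2189 CPM (2.55). Klk6 rose from 7.08 to 41.7 CPM (2.56) and Prss8, prostasin, from 9.45 to 48.8 CPM (2.37) in suprabasal cells.

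In the coagulation list 5 of 33 pairs (15.2%) were higher and 1 (3.03%) lower. F3, tissue factor, rose from 122 to 627 CPM in basal cells (2.37) and from 37.8 to 204 CPM in cluster 18 (2.43). Procr, the protein C receptor, rose from 4.30 to 35.4 CPM in fibroblast-like cells (3.04), F2r, a thrombin receptor, from 7.90 to 25.2 CPM in dermal papilla-like cells (1.67), and Pros1, protein S, fell from 29.5 to 10.4 CPM in suprabasal cells (-1.51), a ratio not large with TMM factors (-1.04).

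Protease inhibitors of other families had 7 higher (7.69%) and 2 lower (2.20%) of 91 pairs. Slpi, a secreted inhibitor of leukocyte proteases, rose from 6.49 to 102 CPM in suprabasal cells (3.98), and Cst6, cystatin M/E, fell from 1837 to 236 CPM in cluster 5 (-2.96). Spink5, the kallikrein inhibitor of the epidermis, fell from 22.8 to 7.41 CPM in cluster 18 (-1.62) and rose from 522 to 1498 CPM in suprabasal cells (1.52), and Stfa2, a stefin, went from 33 UMIs to 0 in cluster 18. Cathepsins had 0 large ratios among 82 pairs; in the added suprabasal class Ctsh rose from 112 to 328 CPM (1.56) and Ctsl from 136 to 329 CPM (1.28), while Ctsa fell from 60.8 to 27.1 CPM (-1.17), which was under 2-fold with TMM factors (-0.70), and in cluster 18 Ctsh fell from 64.5 to 27.02 CPM (-1.26).

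Granzymes and caspases, the targets of Serpinb9 and its relatives, had 1 higher and 1 lower of 20 pairs (5% each). Casp4 rose from 11.8 to 59.96 CPM in fibroblast-like cells (2.34). Collagen folding genes, which work beside Serpinh1, had 4 higher and 0 lower of 104 pairs. Their higher share of 3.85% was near the 3.46% over all pairs. Among them P4ha1, a collagen hydroxylase, rose from 34.1 to 80.2 CPM in T/NK cells (1.23), Plod1, a collagen lysyl hydroxylase, from 10.7 to 25.04 CPM there (1.23) and Col1a1 from 171 to 381 CPM in dermal papilla-like cells (1.16), and in the added suprabasal class Col1a2 rose from 4.72 to 23.3 CPM (2.30).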

How the data were processed

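Cells from dorsal skin were profiled with 10x Genomics 3′ v3 libraries, per the labels' protocols. Cell Ranger 3.0.2, Seurat 3.0.0 and 3.1.0 and the builds GRCm38 and mm10 appear in the submitters' processing notes. As deposited, each matrix holds UMI counts without normalization, and there is 1 for each genotype. Kept barcodes had 500 genes or more and 15% mitochondrial UMIs or less, and 366 control and 453 mutant Scrublet calls were removed (expected rate 0.8% per 1000 cells), 2.59% and 3.95%. Both matrices were clustered together (scanpy 1.11.5, 2000 variable genes without Serpin, cell cycle, histone, mitochondrial and sex-linked genes, 30 components, 15 neighbours, Leiden resolution 1, leidenalg 0.10.2). A cluster was called X-like where its best marker set had a mean z-score of at least 1, led by 0.3, had at least 3 detected markers and was not outnumbered among its 10 leading genes; other clusters keep their number. Cluster 24 (180 control and 11 mutant cells), basal by its markers with a T cell second set, was left out of the basal class after the data were seen. UMIs were summed per class and matrix. Ratios carry exact conditional intervals and levels exact Poisson intervals (scipy 1.17.1). TMM factors came from edgeR 4.0.16 and size factors from DESeq2 1.42.0, on class sums and with no test. Calls were tested on simulated data with counting error only and with the true scaling supplied. That run could not check scaling or differences between libraries. Possible free RNA is a level under 10% of the gene's highest class. Members with at least 100 CPM in a compared class (12) are described in the class where they are highest and wherever their ratio was large; of each companion list up to 4 genes with the largest ratios are named. Results for 1 member and 1 companion gene are not reported here, although the counts include them. Other genes and clusters given with values were picked with those values in view, and for some shares each cell was thinned to 1500 UMIs. The members and lists were chosen with earlier results of these data known. Of the 24 inhibitors of other families, 23 were matched.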

Additional observations from a re-analysis of the deposited data

How the results depend on the processing

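Over the 11 larger classes 10 pairs were higher and 5 lower. The higher count came to 4 with at least 100 CPM and to 4 with possible free RNA left out, and it lay within 1.5 times of the value under the other settings. The lower count was 2 with TMM factors, 2 with size factors, 2 at resolution 0.5, 3 with doublet calls kept, 3 with cells thinned to 1500 UMIs, 3 with possible free RNA left out, 0 with at least 100 CPM and 10 with at least 5 CPM. For 30 named pairs, 211 of 272 values under 10 alternatives lay within the counting interval of the reported ratio, 61 lay outside it and 0 of the called ratios changed sign. No value could be had for 3 pairs at resolution 0.5, where no upper follicle class formed, for 2 with doublet calls kept and for 2 after thinning. Serpinb2 in cluster 5 lost its large ratio at resolutions 0.5 and 2 and after thinning (log2 ratio 0.85). Leaving cluster 24 in, merging the outer root sheath-like clusters, adding the smaller classes and leaving out possible free RNA were alternatives chosen after seeing the data. No paired analysis was possible because all samples of a genotype were deposited in 1 matrix; for the same reason no replicate could be left out. Levels under 20 CPM were not called here, so differences of rarer members appear only in the count at 5 CPM.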

Other observations

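Classes with too few cells to compare held some of the strongest serpin signals. Serpinb1a reached its highest level in mast cell-like cells, with 1748 CPM over 38 control cells and 183 CPM over 48 mutant cells (247 and 36 UMIs). That cluster was led by Mcpt4 and Cpa3 but also by Lyz2, S100a9 and Il1b, genes of other myeloid cells. In Schwann cell-like cells (96 and 120 cells) Serpinb1a was 208 and 12.4 CPM, from 48 and 3 UMIs, Serpina3n 221 and 307 CPM and Serpine2 304 and 195 CPM.

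Langerhans or dendritic cell-like cells (60 and 77 cells) held 697 CPM Serpinb2 in control and 3981 CPM in mutant, beside 395 and 442 CPM Serpinb5. Cluster 24, set apart from the basal class, held 852 and 4097 CPM Serpinb2. Pericyte-like cells (48 and 58 cells) held 451 and 673 CPM Serpine2, and dermal sheath-like cells (91 and 111 cells) 860 and 912 CPM Serpinh1 and 547 and 463 CPM Serping1. Hair cortex or cuticle-like cells (155 and 93 cells) held 723 and 497 CPM Serpinb5.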
